A study of Danio rerio with 16 samples.

Results

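Parvalbumins are small EF-hand proteins that bind calcium in the cytosol of muscle fibres and neurons. In fast muscle they take up calcium after each contraction and so speed relaxation, before the pump of the sarcoplasmic reticulum returns the ion to its store, and fish white muscle is known for its abundance of them. The zebrafish genes pvalb1 to pvalb9 were taken by symbol, case ignored, from a table of 32520 genes. Of these 9 genes 8 had a row, and no row carried the symbol pvalb6, which is not analysed here. Of the 8 genes 5 (pvalb1, pvalb2, pvalb3, pvalb4 and pvalb7) passed a filter on low counts and were tested, and pvalb5, pvalb8 and pvalb9 stayed below it.

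RNA sequencing was done on tail muscle of adult fish in 4 groups of 4, with the muscle of 1 fish in each library. The groups were injured and non-injured ankrd1a mutants, which carry the CRISPR/Cas9 allele bns502, and injured and non-injured wild type fish of the strain AB (Oregon). The gene ankrd1a encodes a protein with ankyrin repeats found in striated muscle, and the series looked for its targets in the repair of injured muscle. Injured fish were sampled 5 days after a needle had been pushed into the dorsal myotome and withdrawn, from the tissue around the lesion, and non-injured fish gave the matching region. The effect of the allele on the transcript and the ages of the fish beyond adult were not given in the sources used here.

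Libraries held between 17324501 and 19811579 estimated counts in mutants and between 18011159 and 25231137 in wild types, so depth moved with genotype, and its part in the genotype comparisons was not tested. Levels below are CPM, counts scaled to a common library total, after TMM scaling, a correction for differences in library composition. The muscle label was checked against fast fibre genes, whose 33 listed rows summed to between 197243 and 461278 CPM in every library, while the 26 slow fibre rows summed to between 3724 and 11332 CPM. Listed macrophage markers summed to between 556 and 726 CPM in injured mutants, against 238 and 321 CPM in non-injured mutants, and to between 435 and 761 CPM in injured wild types, against 253 and 551 CPM in non-injured wild types. Of 21 tested macrophage genes 17 were higher and 0 lower after injury in mutants, and 9 were higher and 0 lower in wild types by edgeR, against 14.0% and 11.8% of all genes tested that were called higher in mutants and in wild types. Of 18 tested epidermis genes 2 were higher and 0 lower in mutants, 11.1% of the list and below the 14.0% of all genes, and 0 passed in wild types. Their median log2 difference was nevertheless 1.19 after injury in mutants, -0.25 in wild types, and -1.82 for mutants against wild types without injury. Listed epidermis markers summed to between 1044 and 1805 CPM in injured mutants, against 647 and 1400.5 CPM in non-injured mutants. In wild types they summed to between 972 and 2423 CPM in injured fish, against 894 and 2920 CPM in non-injured fish. The part of these markers in the parvalbumin results was not tested. In bulk tissue fewer fibres of a type and less transcript per fibre cannot be told apart.

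In the gene order of the zebrafish RefSeq assembly GRCz12tu, 7 of the 9 genes lie in 2 clusters in which protein-coding parvalbumin genes follow each other directly. One holds pvalb8, pvalb4, pvalb1 and pvalb5 in that order, and the other holds pvalb9, pvalb3 and pvalb2. The genes pvalb6 and pvalb7 each lie between other genes. RefSeq lists ocma and ocmb, names of oncomodulin, as synonyms of pvalb8 and pvalb9. All 16 values of each of the 8 rows were whole numbers with no tolerance, although the table holds estimated counts and 91.13% of its values above 0 were whole. How reads shared by similar paralogs were divided among them was not tested.

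After injury the make-up of the parvalbumin transcript pool was different in both genotypes, with a larger share from pvalb2 and a smaller one from pvalb3. The share of pvalb2 in the summed parvalbumin counts was 33.4% ± 4.93 in injured mutants and 11.2% ± 3.84 in non-injured mutants (SD, n = 4 each). It was 27.9% ± 4.61 in injured and 11.4% ± 0.48 in non-injured wild types. The share of pvalb3 was 25.9% ± 5.01 in injured mutants and 38.6% ± 4.89 in non-injured mutants, and 27.9% ± 4.68 in injured and 41.9% ± 2.69 in non-injured wild types. For both genes the injured and the non-injured libraries did not overlap in either genotype. Shares within a library do not depend on how libraries are scaled. They are shares of counts, to which a longer transcript gives more, so they are compared between groups and not between genes.

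The mean share of pvalb4 was lower, and that of pvalb1 higher, in injured fish of both genotypes. The share of pvalb4 was 19.1% ± 3.20 in injured mutants and 36.3% ± 5.73 in non-injured mutants, with no overlap, and 22.9% ± 4.88 in injured and 32.2% ± 5.83 in non-injured wild types, where the libraries overlapped. The share of pvalb1 was 21.1% ± 3.58 in injured mutants and 13.1% ± 3.53 in non-injured mutants, and 20.7% ± 4.30 in injured and 13.7% ± 4.21 in non-injured wild types. These shares of pvalb1 overlapped in both genotypes. Together pvalb1 and pvalb2 held between 47.2% and 65.9% of the pool in injured mutants, against 18.2% and 31.8% in non-injured mutants. They held between 37.0% and 56.4% in injured wild types, against 18.7% and 29.4% in non-injured wild types. Counting error was small beside this spread, with 95% Wilson intervals of a share reaching at most 0.11 percentage points to either side. Intervals of this kind cover counting error only, since reads copied by PCR are not independent molecules.

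**Figure D1:**
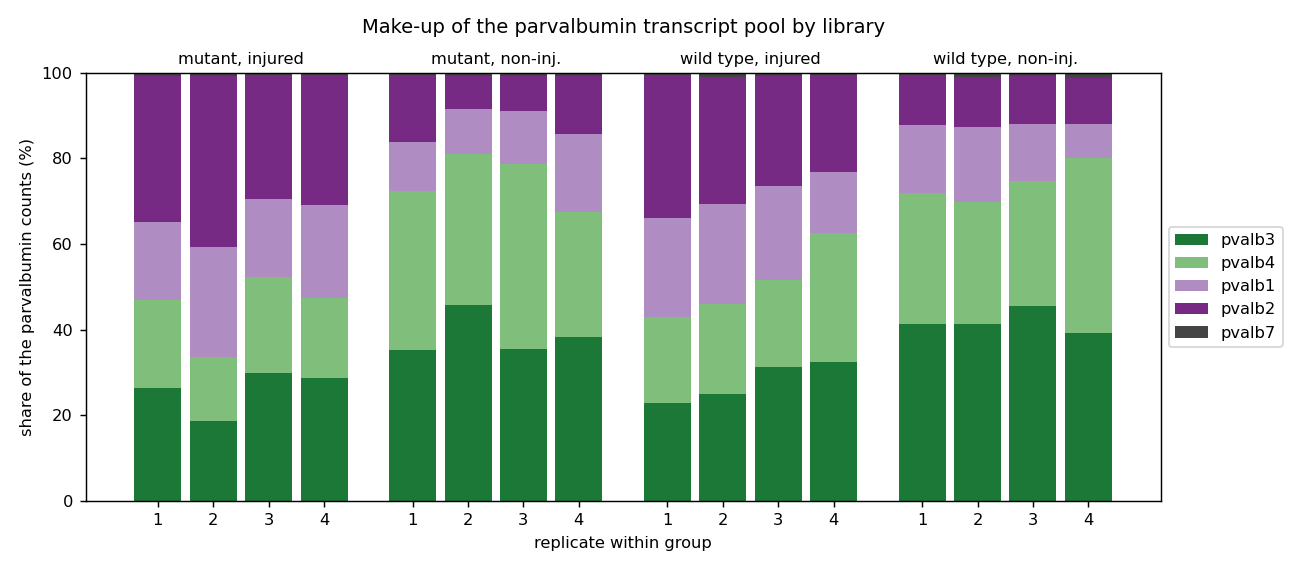
Share of each gene in the summed parvalbumin counts of a library (y axis, percent), with 1 stacked bar per fish and replicate numbers on the x axis. The pvalb2 segment is between 22.7% and 39.9% in the 8 injured fish and between 7.71% and 15.5% in the 8 non-injured fish.

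As a percentage of all counts in a library, without TMM scaling, the pool overlapped between the groups. Parvalbumin counts made up 4.73% ± 0.401 of a library in injured mutants and 4.82% ± 0.416 in non-injured mutants (SD, n = 4 each). They made up 5.22% ± 0.747 in injured and 6.23% ± 1.40 in non-injured wild types. The ranges of injured and non-injured fish overlapped in both genotypes, as did those of mutants and wild types in both states. The widest range was that of non-injured wild types, with 4.39% of the library in replicate 4 and 7.62% in replicate 3. Unlike the levels in CPM, these percentages carry no TMM scaling. Leaving TMM out of the fit raised the median log2 fold change after injury by 0.27 in mutants and 0.36 in wild types. A pool of unchanged percentage would thus be lower after injury in TMM-scaled CPM. Its size on that scale was not tested.

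Ratios of neighbouring genes were taken in each fish from the same counts as the shares, so they restate them. Each fish was sampled in 1 state, so the ratios are compared between fish. The log2 ratio of pvalb2 counts to pvalb3 counts was 0.38, 1.097, -0.05 and 0.10 in the injured mutants, against -1.18, -2.57, -2.10 and -1.50 in the non-injured mutants. It was 0.54, 0.25, -0.28 and -0.51 in the injured wild types, against -1.84, -1.80, -2.01 and -1.87 in the non-injured wild types. Every injured fish stood above every non-injured fish, and the non-injured wild types lay within a narrow band. The mean log2 ratio was thus higher by 2.22 in injured mutants and by 1.88 in injured wild types. For pvalb1 over pvalb4, neighbours in the other cluster, the log2 ratio was -0.16, 0.81, -0.28 and 0.19 in the injured mutants, against -1.70, -1.75, -1.82 and -0.68 in the non-injured mutants. It was 0.19, 0.16, 0.12 and -1.08 in the injured wild types, against -0.93, -0.69, -1.15 and -2.36 in the non-injured wild types. Here mutants did not overlap, and wild types did because injured replicate 4 lay among the non-injured fish. Transcript length does not enter these differences if it stays the same for a gene across groups, which was not checked. The differences show unequal change of the neighbours and not which of them changed.

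**Figure D2:**
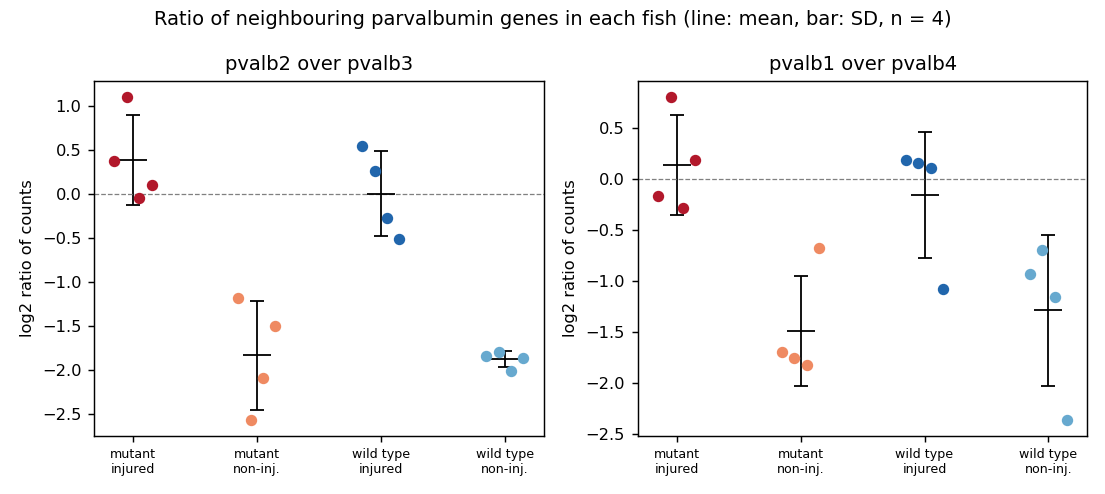
Log2 ratio of counts of neighbouring parvalbumin genes (y axis) by group, with 1 point per fish, the mean as a line and the SD as a bar (n = 4). For pvalb2 over pvalb3 the injured fish lie between -0.51 and 1.097 and the non-injured fish between -2.57 and -1.18.

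Whether each gene changed in level was tested with edgeR's quasi-likelihood test on the whole table of 16514 tested genes, with Benjamini-Hochberg adjustment over all of them and a threshold of 0.05. The fish of the 4 groups shared their estimate of spread. In mutants 1 of the 5 tested parvalbumin genes was higher after injury (pvalb2) and 1 was lower (pvalb4), while 27.2% of all tested genes were called, 14.0% higher and 13.3% lower. In wild types 0 of the 5 were higher and 3 were lower (pvalb3, pvalb4 and pvalb7), while 23.8% of all tested genes were called, 11.8% higher and 11.9% lower. At an unadjusted p below 0.05 there were 4 of the 5 in mutants, against 38.9% of all genes, and 3 of the 5 in wild types, against 36.5%. The median log2 fold change of the 5 genes was -0.53 in mutants and -0.998 in wild types, against -0.02 and -0.03 over all genes tested. In mutants 4 of the 5 genes did not overlap between injured and non-injured fish, against 31.1% of all genes tested, and in wild types 1 of the 5 did not, against 22.1%.

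pvalb2 stood at 13407, 13981, 11529 and 14511 CPM in the injured mutants, against 7415, 3238, 3916 and 8622 CPM in the non-injured mutants. In wild types it stood at 14494, 10994, 18485 and 11237 CPM in injured fish, against 7361, 12167, 11232 and 4941 CPM in non-injured fish. All injured mutants were above all non-injured ones, with the non-injured fish split between lower levels in replicates 2 and 3 and higher ones in replicates 1 and 4, and the wild type groups overlapped. The rise in mutants had a log2 fold change of 1.204 (SE 0.33, edgeR adjusted p = 0.0129), or 2.30-fold. In wild types the log2 fold change was 0.63 (SE 0.32, adjusted p = 0.173), with a 95% interval from -0.06 to 1.31, and this gene was not called. With library size as the only scaling, which moves the median gene up by a log2 of 0.36 after injury in wild types and 0.27 in mutants, the wild type value became 1.03 and was called (adjusted p = 0.00503). The difference between the 2 injury responses, mutants minus wild types, was 0.57 (SE 0.46, adjusted p = 0.864; 95% interval -0.39 to 1.54).

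For pvalb3 the levels were 10324, 6538, 11963 and 13581 CPM in the injured mutants, against 16853, 19201, 16792 and 24364 CPM in the non-injured mutants. In wild types they were 9948, 9216, 22406 and 16032 CPM in injured fish, against 26410, 42379, 45286 and 18054 CPM in non-injured fish. Mutants did not overlap, while in wild types injured replicate 3 stood above non-injured replicate 4. In wild types pvalb3 fell by 1.198 on the log2 scale (SE 0.33, edgeR adjusted p = 0.0173). That call was lost without injured wild type replicate 1 (adjusted p = 0.0602) or replicate 2 (0.0608), without non-injured wild type replicate 3 (0.0513), and with only the 8 wild type libraries fitted (0.0668). In mutants the log2 fold change was -0.86 (SE 0.33, adjusted p = 0.0655), short of the threshold. It passed with DESeq2 (0.0333), with only the 8 mutant libraries fitted (0.0181) and without non-injured wild type replicate 4 (0.0447). The injury responses differed by 0.33 (SE 0.47, adjusted p = 0.943; 95% interval -0.66 to 1.32).

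Levels of pvalb4 were 8028, 5190, 8945 and 8967 CPM in the injured mutants, against 17898, 14892, 20387 and 18685 CPM in the non-injured mutants. In wild types they were 8820, 7700, 14453 and 14976 CPM in injured fish, against 19542, 28999, 28966 and 18814 CPM in non-injured fish. No injured fish reached the level of any non-injured fish of its genotype. In mutants pvalb4 fell by 1.21 on the log2 scale (SE 0.25, edgeR adjusted p = 0.00288), to 0.433 of the level without injury. In wild types it fell by 1.07 (SE 0.25, adjusted p = 0.00705), to 0.477 of that level. Of the 5 genes it was the one called in both genotypes, and both calls held under every alternative setting run, with adjusted p up to 0.012 in mutants and 0.0386 in wild types. The injury responses differed by -0.14 (SE 0.35, adjusted p = 0.968; 95% interval -0.89 to 0.61).

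The gene next to it in the cluster, pvalb1, was not called in any comparison. It had 7175, 9080, 7382 and 10253 CPM in the injured mutants, against 5526, 4418, 5766 and 11694 CPM in the non-injured mutants. In wild types it had 10078, 8618, 15656 and 7091 CPM in injured fish, against 10230.4, 17962, 13049.5 and 3669.9 CPM in non-injured fish. Among non-injured fish replicate 4 of the mutants was the highest of its group and replicate 4 of the wild types the lowest of its group. The log2 fold change was 0.31 in mutants (SE 0.40, edgeR adjusted p = 0.61; 95% interval -0.55 to 1.16) and -0.12 in wild types (SE 0.40, adjusted p = 0.864; -0.97 to 0.74), where its sign turned with library size only (0.30), with limma-voom (0.027), without injured wild type replicate 4 (0.034) and without non-injured wild type replicate 2 (0.21). Its biological coefficient of variation was 39.4%, against 25.5% for pvalb4 and a median of 23.4% over all genes tested. The summed fast fibre level was also highest of its group in non-injured mutant replicate 4, at 341920.5 CPM. In non-injured wild type replicate 4 this sum was the lowest of its group, at 226610 CPM. Its part in the spread of pvalb1 was not tested.

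pvalb7 is known from zebrafish cerebellum, where it marks Purkinje neurons. In these muscle samples it had 245, 224.5, 239.3 and 201.5 CPM in the injured mutants, against 276.2, 266.5, 339.6 and 433.8 CPM in the non-injured mutants. In wild types it had 258.1, 312.1, 456.1 and 255.2 CPM in injured fish, against 386.6, 889.3, 724.2 and 559.3 CPM in non-injured fish. The mutants did not overlap, and in wild types only injured replicate 3 stood above a non-injured fish, replicate 1. In wild types pvalb7 fell by 0.998 on the log2 scale (SE 0.25, edgeR adjusted p = 0.00962), a call that with only the 8 wild type libraries fitted narrowly failed (0.0511). In mutants the log2 fold change was -0.53 (SE 0.25, adjusted p = 0.125), and with only the 8 mutant libraries fitted the adjusted p was 0.044. The injury responses differed by 0.47 (SE 0.35, adjusted p = 0.848; 95% interval -0.28 to 1.21).

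Of 12 tested neuron genes 9 were lower and 0 higher after injury in mutants, against 13.3% of all genes called lower, and 0 passed the edgeR test in wild types. The median log2 fold change of the 12 was nevertheless negative in both, at -3.06 in mutants and -1.74 in wild types. For the difference between the injury responses edgeR called 0 of them. The 23 rows on the neuron list, 1 of them (a row of SLC18A3, the vesicular acetylcholine transporter) at 0 in all libraries, summed to between 4.57 and 12.5 CPM in injured mutants, against 9.54 and 114.6 CPM in non-injured mutants. In wild types they summed to between 5.41 and 17.68 CPM in injured fish, against 17.65 and 57.1 CPM in non-injured fish. The highest sum of each non-injured group was in mutant replicate 2 and in wild type replicate 2. A setting chosen after seeing the data left out these 2 libraries. There pvalb7 had a log2 fold change after injury of -0.79 in wild types (edgeR adjusted p = 0.0358) and -0.60 in mutants (adjusted p = 0.0851). The libraries left out had the lowest pvalb7 level of the non-injured mutants (266.5 CPM) and the highest of the non-injured wild types (889.3 CPM). Leaving them out moves these values whatever their neuron content, whose part was not tested. Non-injured mutant replicate 3, at 67.8 CPM above every wild type, was kept in this setting.

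**Figure D3:**
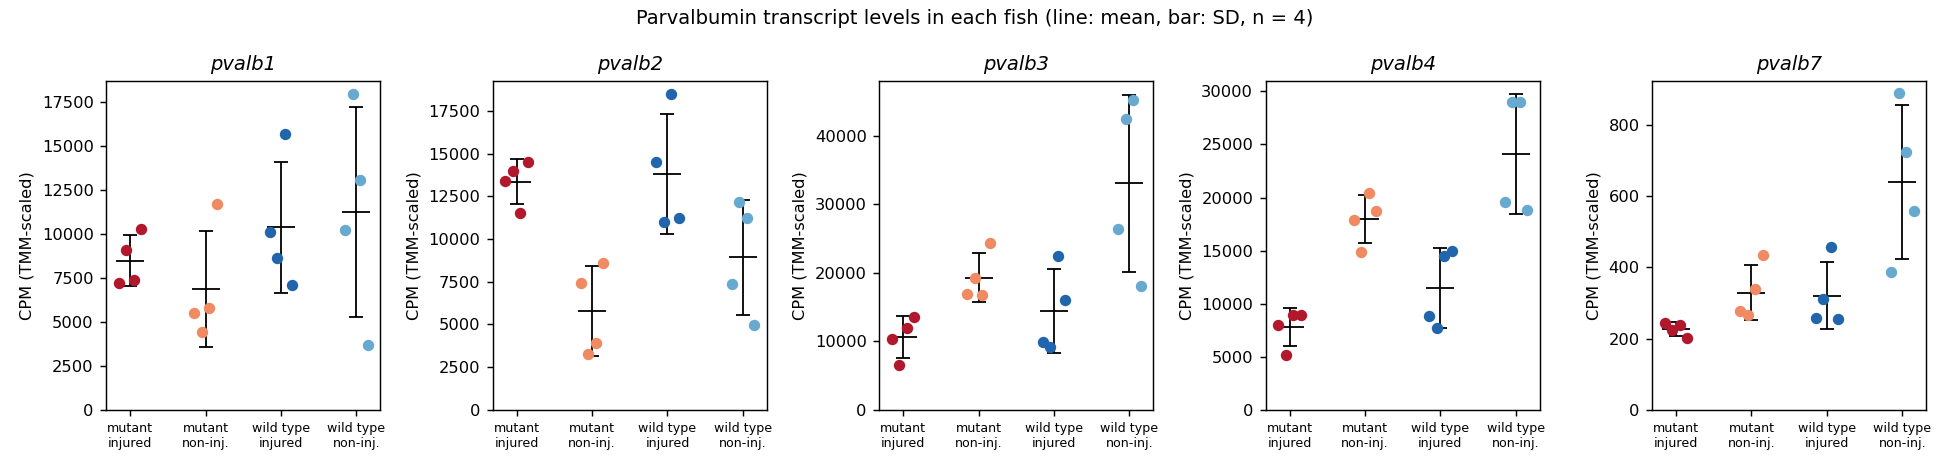
TMM-scaled CPM (y axis, linear and starting at 0, with its own range for each gene) of the 5 tested parvalbumin genes by group, with 1 point per fish, the mean as a line and the SD as a bar (n = 4). For pvalb4 the 4 injured mutants lie between 5190.0 and 8967 CPM, below the non-injured mutants at 14892 CPM and above.

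Mutant and wild type muscle were compared in each injury state. Without injury edgeR called 0 of the 5 parvalbumin genes, against 2.83% of all genes tested. All 5 log2 fold changes were negative, with a median of -0.71 against -0.01 over all genes. The median of the 33 tested fast fibre genes in this comparison was -0.35. At an unadjusted p below 0.05 there were 2 of the 5, and DESeq2 called 1 and limma-voom 0. Over the whole table DESeq2 called 1135 genes in this comparison and limma-voom 284, against 467 by edgeR. The unadjusted share was 20.0% over all genes tested, and 1.38% were called higher and 1.45% lower by edgeR. The groups did not overlap for 0 of the 5, against 9.04% of all genes. The gene nearest to the threshold was pvalb7, with 329 ± 77.0 CPM in non-injured mutants and 640 ± 216 CPM in non-injured wild types (SD, n = 4 each), with a log2 difference of -0.96 (SE 0.25, adjusted p = 0.0514). This value lay past the threshold with DESeq2 (adjusted p = 0.00511) and with DESeq2 size factors within edgeR (0.0488). It also passed in edgeR fits without non-injured mutant replicate 4 (adjusted p = 0.0423), injured wild type replicate 3 (0.0435) or replicate 4 (0.0498), or non-injured wild type replicate 1 (0.0243). Without the library highest in neuron markers of each non-injured group the log2 difference was -0.69 (adjusted p = 0.185). Those 2 libraries had the lowest pvalb7 level of the non-injured mutants and the highest of the non-injured wild types. The difference therefore narrows without them whatever their neuron content, whose part was not tested. pvalb3 had 19302 ± 3556 CPM in non-injured mutants and 33032 ± 12984 CPM in non-injured wild types (-0.78, SE 0.33, adjusted p = 0.21), and these groups overlapped through non-injured wild type replicate 4.

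After injury edgeR again called 0 of the 5, against 1.48% of all genes tested, 0.830% higher and 0.648% lower. At an unadjusted p below 0.05 there was 1 of the 5 (pvalb4), against 15% of all genes, and DESeq2 and limma-voom called 0. The level of pvalb4 was 7782 ± 1783 CPM in injured mutants and 11488 ± 3760.3 CPM in injured wild types (-0.56, SE 0.25, adjusted p = 0.304; 95% interval -1.09 to -0.03). That of pvalb2 was 13357 ± 1299 CPM in injured mutants and 13802.5 ± 3506 CPM in injured wild types, a log2 difference of -0.05 with a 95% interval from -0.73 to 0.64. pvalb7 was the one gene whose groups did not overlap, with 228 ± 19.4 CPM in injured mutants and 320 ± 94.2 CPM in injured wild types (-0.49, SE 0.25, adjusted p = 0.374), against 11.8% of all genes tested without overlap. For the difference between the injury responses edgeR, DESeq2 and limma-voom called 0 of the 5 genes and 0 had an unadjusted p below 0.05, against 0.0606% of all genes called by edgeR, 0.0182% higher and 0.0424% lower, and 7.31% with such an unadjusted p. Each group of fish enters both an injury and a genotype comparison, so the values of these comparisons are not independent of each other.

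**Figure D4:**
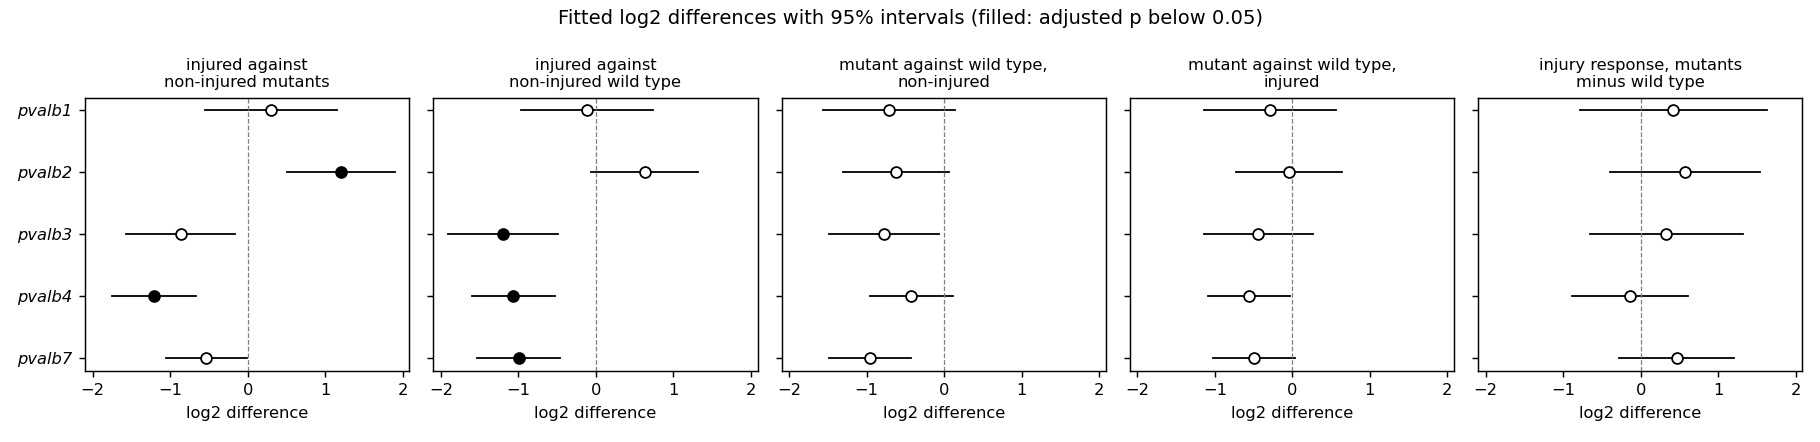
Fitted log2 differences (x axis) of the 5 tested genes in 4 comparisons of groups and in the difference between the injury responses, with 95% intervals from the edgeR fit of 16 libraries. Filled points, with an adjusted p below 0.05, are pvalb2 and pvalb4 in mutants and pvalb3, pvalb4 and pvalb7 in wild types, all for injury.

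Ordered by mean level, pvalb3, pvalb4 and pvalb7 had the same order of groups, highest in non-injured wild types, then non-injured mutants, injured wild types and injured mutants. pvalb2 was highest in injured wild types, followed by injured mutants, non-injured wild types and non-injured mutants. Neighbours in these orders overlapped, except that injured wild types and injured mutants did not overlap for pvalb7. Among all pairs of the 5 genes, pvalb3 and pvalb4, which lie in different clusters, had the most alike profiles over the 16 libraries. The root mean square difference of their log2 CPM, each centred on its own mean, was 0.26. It was 1.11 for the neighbours pvalb2 and pvalb3 and 0.88 for the neighbours pvalb1 and pvalb4, and 0.50 for pvalb1 and pvalb2. Taken as deviations from the group means, the difference was 0.23 for pvalb3 and pvalb4, 0.41 for pvalb2 and pvalb3, 0.52 for pvalb1 and pvalb4, and 0.30 for pvalb1 and pvalb2.

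The genes with the most similar profiles were looked for among 10127 others with an own symbol and a mean log2 CPM of at least 1, for each parvalbumin gene called in a comparison. Nearest to pvalb4 were PKM (ENSDARG00000099860), a pyruvate kinase of glycolysis, at a root mean square difference of 0.21, GPD1, a cytosolic glycerol-3-phosphate dehydrogenase, at 0.21, and phtf2 at 0.22. Nearest to pvalb3 were STYXL2 at 0.23, pvalb4 at 0.26 and GPD1 at 0.29. The genes nearest to pvalb2 were CAPRIN1, an RNA-binding protein, at 0.32, the scavenger receptor gene scara5 at 0.32 and june, of the Jun family, at 0.33. Those nearest to pvalb7 were SINHCAF at 0.25, the sorting receptor SORT1 at 0.26 and CNOT6L, a deadenylase subunit, at 0.26. Over all genes searched the median difference was between 0.68 and 0.79.

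The 3 remaining genes had few counts, up to 8 for pvalb5, 11 for pvalb8 and 17 for pvalb9 in a library. pvalb5 had 3, 4, 0 and 5 counts in the injured mutants, 2, 4, 4 and 1 in the non-injured mutants, 7, 1, 1 and 0 in the injured wild types and 2, 1, 6 and 8 in the non-injured wild types. pvalb8 and pvalb9 are known from sensory hair cells of the zebrafish. pvalb8 had between 4 and 7 counts in injured mutants, 2 and 8 in non-injured mutants, 2 and 11 in injured wild types and 2 and 10 in non-injured wild types. For pvalb9 the counts were 0, 0, 6 and 0 in the injured mutants, 4, 0, 1 and 1 in the non-injured mutants, 0, 17, 0 and 8 in the injured wild types, and 4, 0, 0 and 4 in the non-injured wild types. The library with 17 counts was injured wild type replicate 2. A count of 0 in a library allows up to 3 counts, a level between 0.108 and 0.192 CPM by library. Tested without the filter on low counts, none of these 3 genes was called by edgeR in any comparison, with adjusted p of 0.433 and above and 0 of them with an unadjusted p below 0.05. The 23 rows on the hair cell list summed to between 10.3 and 18.7 CPM, with 1 row, lhfpl5b, at 0 in all libraries and 6 tested. Named after their values were seen, POU4F3, which hair cells need to survive, had between 0 and 1 counts per library, while MYO6 (ENSDARG00000044016), a myosin that other cells use too, had between 83 and 216, OTOF (ENSDARG00000030832) between 10 and 50 and TMC1 between 0 and 42. Of the 6 tested genes 1 was higher after injury in each genotype, 16.7%, against 14.0% of all genes in mutants and 11.8% in wild types. This gene was PCDH15 (ENSDARG00000098257), a cadherin of hair cell tip links. It had 3.17 ± 0.878 CPM in injured and 0.155 ± 0.128 CPM in non-injured mutants (log2 4.32, SE 0.51, edgeR adjusted p = 3.5e-05), and 2.89 ± 0.488 CPM in injured and 0.159 ± 0.146 CPM in non-injured wild types (log2 4.21, SE 0.51, adjusted p = 5.8e-05; SD, n = 4 each).

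One further row carried the bare symbol PVALB (ENSDARG00000009311). The table of names does not tie it to a numbered zebrafish gene, and it is not counted among the 8. It had 0, 4, 3 and 0 counts in the injured mutants and 5, 21, 26 and 1 in the non-injured mutants. In wild types it had 3, 2, 0 and 2 counts in injured fish and 3, 4, 5 and 2 in non-injured fish. The 2 libraries with 21 and 26 counts, non-injured mutant replicates 2 and 3, had the highest neuron marker sums of their group, 114.6 and 67.8 CPM, against 9.54 and 36.3 CPM in replicates 1 and 4. Tested without the filter on low counts, the row was lower after injury in mutants (log2 -3.00, edgeR adjusted p = 0.0398) and passed in no other comparison, and the part of neuron content in this was not tested.

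Other calcium genes were read from lists that named none of the parvalbumins. Of 34 tested soluble buffers and EF-hand sensors 7 were higher and 6 lower after injury in mutants, and 7 higher and 3 lower in wild types, with medians of 0.17 and 0.09. Called higher or lower were 38.2% of the list in mutants and 29.4% in wild types, against 27.2% and 23.8% of all genes tested, and the 8.82% lower in wild types stood below the 11.9% of all genes. The cardiac and slow form of the troponin calcium sensor, TNNC1 (ENSDARG00000037539), had 204.5 ± 40.5 CPM in injured mutants and 558 ± 92.4 CPM in non-injured mutants (SD, n = 4 each), with a log2 difference of -1.45 (SE 0.18, edgeR adjusted p = 4.4e-05). The glial calcium-binding gene S100B (-1.22, SE 0.27, adjusted p = 0.0045) was lower too in mutants. Calcium-binding proteins of the secretory pathway were among those that rose, with RCN1 at 0.98 in mutants (SE 0.20, adjusted p = 0.00231) and 1.38 in wild types (SE 0.20, adjusted p = 2.9e-04). In wild types CALU (ENSDARG00000045676; 1.43, SE 0.17) and rcn3 (2.30, SE 0.27), of the same family, rose with edgeR adjusted p of 4.0e-05 and 4.6e-05.

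Of 18 genes for calcium uptake and storage in the sarcoplasmic and endoplasmic reticulum 2 were higher and 2 lower after injury in each genotype, with medians of -0.15 in mutants and -0.07 in wild types. The 22.2% called is below the 27.2% in mutants and 23.8% in wild types over all genes tested. The slow and cardiac pump gene atp2a2a had 302.5 ± 39.6 CPM in injured mutants and 1399 ± 341 CPM in non-injured mutants, and 327 ± 30.7 CPM in injured and 1016 ± 231.5 CPM in non-injured wild types. It fell in both, with log2 fold changes of -2.21 in mutants (SE 0.21, edgeR adjusted p = 5.9e-06) and -1.64 in wild types (SE 0.21, adjusted p = 9.5e-05). The calreticulins calr3b and CALR rose in both genotypes, by log2 values of 1.04 and 0.90 in mutants and 1.34 and 0.86 in wild types. In mutants calr3b was also higher than in wild types, by 1.15 without injury (SE 0.12, adjusted p = 1.2e-04) and 0.86 after it (SE 0.12, adjusted p = 0.00155). CASQ2, a calsequestrin that stores calcium in the reticulum, was higher in non-injured mutants, with 75.5 ± 15.9 CPM against 37.8 ± 11.99 CPM in non-injured wild types (log2 0.9985, SE 0.21, adjusted p = 0.0217).

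Of 23 genes for calcium release 2 were higher and 3 lower after injury in each genotype, with medians of -0.16 in mutants and -0.17 in wild types. This 21.7% of the list was likewise below the 27.2% and 23.8% of all genes called in mutants and in wild types. In mutants a ryanodine receptor gene, RYR1 (ENSDARG00000011422), had a log2 difference of -1.38 (SE 0.24, edgeR adjusted p = 7.4e-04) and the voltage sensor CACNA1S (ENSDARG00000029457) of -1.10 (SE 0.20, adjusted p = 0.00111). In wild types CACNA1S had -0.66 (SE 0.20, adjusted p = 0.0255). The small channel-binding gene fkbp1ab rose by 1.24 in mutants (SE 0.28, adjusted p = 0.00482) and 1.66 in wild types (SE 0.28, adjusted p = 7.4e-04). CACNB1, the beta subunit of the same channel as CACNA1S, rose by 0.61 in wild types (SE 0.17, adjusted p = 0.0176). Of 23 genes for transport across the plasma and mitochondrial membranes 3 were lower in mutants and 2 in wild types, and 0 were higher in either by edgeR, with medians of -0.15 and -0.40. The shares called lower, 13% in mutants and 8.7% in wild types, were at or below the 13.3% and 11.9% of all genes. VDAC2, a channel of the outer mitochondrial membrane, fell in both genotypes (-0.83 in mutants and -0.88 in wild types), as did smdt1a, a subunit of the mitochondrial uniporter (-0.73 in mutants and -0.94 in wild types). The plasma membrane pump gene atp2b2 fell by 1.58 in mutants (SE 0.36, adjusted p = 0.00493). Between genotypes 2 of the 18 uptake and storage genes were higher in mutants without injury, 11.1% against 1.38% of all genes. After injury 1 was higher, 5.56% against 0.830%. Of the buffer, release and transport lists edgeR called 0 genes, against 2.83% of all genes without injury and 1.48% after it. The most highly expressed members of these lists without injury were TNNC2 (ENSDARG00000070835; -0.53, adjusted p = 0.14), RYR3 (-0.57, adjusted p = 0.201) and VDAC2 (-0.20, adjusted p = 0.532).

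Fibre type genes were set beside these. One fast myosin heavy chain gene, myhz2, named after its values were seen, had 6987 ± 1509 CPM in injured mutants and 98.4 ± 19.0 CPM in non-injured mutants, and 3202 ± 193 CPM in injured and 120.2 ± 35.2 CPM in non-injured wild types (SD, n = 4 each). Without injury it was a minor part of the fast myosin transcripts. On the same list myhc4 had 102783 ± 38157 CPM in non-injured mutants and 137211 ± 53233 CPM in non-injured wild types. Of 33 tested fast fibre genes 8 were higher and 4 lower after injury in mutants, and 7 higher and 4 lower in wild types, with medians of 0.17 and -0.11. The shares called higher were 24.2% in mutants and 21.2% in wild types, against 14.0% and 11.8% of all genes, and the 12.1% called lower in each was near the 13.3% and 11.9% of all genes. Of 23 tested slow fibre genes 1 was higher and 13 lower in mutants, and 2 higher and 11 lower in wild types, with medians of -1.06 and -0.75. The shares called lower were 56.5% in mutants and 47.8% in wild types, against 13.3% and 11.9% of all genes. The summed slow fibre level was between 3768 and 4459 CPM in injured mutants, against 8524 and 11332 CPM in non-injured mutants, and between 3724 and 4953 CPM in injured wild types, against 6930 and 10278 CPM in non-injured wild types. The summed fast fibre level overlapped between injured and non-injured fish in both genotypes. Between genotypes 3 of the 33 fast fibre genes were higher in injured mutants than in injured wild types, 9.09% against 0.830% of all genes. All 3 were fast myosin heavy chain genes, myhz1.1, myhz1.2 and myhz2 (for myhz2 log2 1.13, SE 0.23, edgeR adjusted p = 0.0221). The median of the 33 genes in this comparison was negative, at -0.17.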

How the data were processed

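Poly A RNA of 16 fish was made into stranded libraries and sequenced, per the labels' protocols. The authors deposited estimated counts per gene. RSEM 1.3.3, STAR (2.7.0 as well as 2.7.10) and fastp 0.23.4 are named, with no role, per the submitters' processing notes. Which genome build, annotation and strand setting were used was not given in the sources used here. For the fits the deposited values were rounded to integers. Genes were filtered with filterByExpr (minimum count 10, minimum total 15), scaled by TMM and fitted with edgeR 4.0.16 in R 4.3.3, as 1 robust quasi-likelihood model with a mean for each of the 4 groups. Of 32520 genes 16514 were tested, two-sided, with Benjamini-Hochberg adjustment over all of them. Standard errors come from the F statistic. Alternatives used DESeq2 1.42.0 and limma 3.58.1. The fit was also run on counts simulated from its own mean levels and spreads, which cannot show how well it describes these data.

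Symbols came from a table naming 29201 of the 32520 IDs. Listed symbols were matched exactly, by RefSeq synonym, or without their paralog suffix, in which case all IDs of the shared symbol entered. The members and lists were chosen with earlier results of these data known. Shares and sums over the members therefore have no p-value. Named genes other than the members follow a rule: per calcium list and comparison up to 3 called genes ranked by p, or, where none was called, the one with the highest mean level, and the 3 nearest profiles of each called parvalbumin gene. SLC18A3, myhz1.1, myhz1.2, myhz2, myhc4 and the hair cell genes were named outside it, after their values were seen.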

Additional observations from a re-analysis of the deposited data

Results flagged for a closer look

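In 44 sets of 4 libraries (levels and shares of the 5 tested genes and the share of the pool in the library, in each group), 2 held a library whose distance to its nearest neighbour relative to the range of the group exceeded Dixon's 95% critical value, where chance gives about 1 in 20. This is near the number that chance gives. Both were shares of the same pool in injured wild type replicate 4, so they are not independent of each other. Parvalbumin counts in this library held 30.2% from pvalb4, against 20.2% to 20.9% in the other injured wild types, and 14.3% from pvalb1, against 21.9% to 23.4%. The library was thus nearer to non-injured fish in these 2 shares than the other injured wild types were. Its share of pvalb2, 22.7%, was the lowest of the injured wild types and above that of every non-injured fish.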

How the results depend on the processing

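Of 5 called changes, 3 (pvalb2 and pvalb4 in mutants, pvalb4 in wild types) kept their call and direction under all alternatives run, and 16 of 20 uncalled values were called under none. Fitting only the 8 libraries compared gave 4 called parvalbumin genes for injury in mutants, against 2, and 1 in wild types, against 3. Over the whole table fewer genes were also called in wild types in this fit, 2565 against 3927. In mutants the whole-table number did not fall. Between genotypes without injury the number of called parvalbumin genes was 1, against 0, with DESeq2 size factors and with DESeq2. It was between 0 and 1 leaving out 1 library. Each of these calls was of pvalb7. The sign of pvalb1 after injury in wild types turned with library size only (0.30) and with limma-voom (0.027). The log2 fold change of this gene ran from -0.41 to 0.21 leaving out 1 library. Its sign also turned without the library highest in neuron markers of each non-injured group (0.21). Without those neuron-rich libraries pvalb3 in wild types lost its call (adjusted p = 0.0585), and for pvalb1 the injury response of mutants minus that of wild types became -0.040. The genotype difference of pvalb2 after injury was 0.11 with library size only and -0.14 to 0.13 leaving out 1 library, and the response difference of pvalb4 ran from -0.29 to 0.013 leaving out 1 library. The causes were not tested.

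Labels do not say that equal replicate numbers mark a shared batch. Deviations of same-numbered libraries from their group means correlated between -0.27 and 0.34 across genes. For 6 of 16 libraries the most like library of another group had the same number. Each other group of 4 libraries holds a same-numbered one, so some such matches arise by chance. With the replicate number as a block, the counts of called parvalbumin genes were 2 and 3 for injury in mutants and wild types and 0 elsewhere, and no call of a parvalbumin gene changed. Genes called over the whole table for the difference between the injury responses were 4 with the block, against 10 without. Over the whole table genes called without injury between genotypes were 1135 with DESeq2 and 130 with only 8 libraries, against 467. Shares per kilobase and the pooling of near-identical paralogs were not run, since no transcript or protein sequences were used here. In a library pvalb5, pvalb8 and pvalb9 had at most 17 counts, and how large a difference could be called at such counts was not tested.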
